A study of Saccharomyces cerevisiae with 14 samples.

Results

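The genes described here encode the yeast enzymes that make arginine, histidine, the branched-chain amino acids, lysine, the aromatic amino acids, threonine, serine, asparagine and proline, with the sulfur amino acids left out. They were chosen as a list of 58 gene names, looked up by standard or systematic name. The rule used no measured value, but earlier results of these data were known when the list was chosen. Of the 58 genes, 56 were found among the 6094 open reading frames on the arrays. The other 2, ARG7 and SER33, were not analysed here.

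Total RNA of Saccharomyces cerevisiae was labelled with 33P and hybridised to gene membranes, with 1 array for each of 14 conditions. Cells of the strain FF18984 in mid log phase, in minimal F1 medium or rich YPD medium, were mock-treated or given the DNA-alkylating agent methyl methanesulfonate (MMS) at 0.00125% (low dose) or 0.0125% (high dose) for 30 min or 1 h. These 12 arrays were set beside 2 of the strain BY4742, mock-treated or at the high dose, both in YPD for 1 h. The arrays of 1 medium and time were made on 1 membrane that was stripped between samples, which gives 4 membrane sets of 3 arrays for FF18984 and 1 set of 2 for BY4742. The genotype of FF18984, the amino acid content of F1 and the order of the hybridisations are not given in the sources used here. BY4742 is a laboratory strain that carries deletions in HIS3, LEU2, LYS2 and URA3.

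Yeast makes all of these amino acids from intermediates of central metabolism. When amino acids run short, the kinase Gcn2 raises translation of the transcription factor Gcn4, which switches on biosynthesis genes of many pathways together, a response called general amino acid control. Single pathways also have regulators of their own, such as Leu3 for leucine, Lys14 for lysine and the ArgR-Mcm1 complex for arginine. In rich medium, which supplies amino acids, cells need less of these enzymes.

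Levels are given as log2 intensity after quantile normalization, on a scale where all arrays share a median of -0.22. A gap of 1 between levels is 2-fold. They are not comparable between genes. A gene passed the test at a limma adjusted p under 0.05 over all 6094 genes. In bulk RNA, less RNA per cell and fewer cells holding it cannot be told apart.

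The arrays of the 30 min and 1 h samples stood apart. Across genes, pairs of arrays of the same time correlated at a median of 0.80 (30 min) and 0.83 (1 h), and pairs of unlike times at 0.40. Those of BY4742, labelled 1 h, correlated at 0.83 to 0.86 with the FF18984 YPD arrays at 30 min and at 0.41 to 0.42 with those at 1 h. Each time lies on its own membranes, so time and membrane cannot be told apart, and neither can an exchange of time labels. The terms 30 min and 1 h below, and the pairing of BY4742 with the 1 h arrays, follow the labels. BY4742 is an alpha strain, while the mating type of FF18984 is not given in the sources used here. STE2, the alpha-factor receptor of a cells, stood at 0.76 to 2.84 in FF18984 against -2.15 and -1.65 in BY4742. STE3, the a-factor receptor of alpha cells, was at -2.35 to -0.28 in FF18984 against 1.90 and 1.29 in BY4742. Of the 56 biosynthesis genes, 38 lay above background on all 14 arrays.

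Rich medium was compared with minimal medium in FF18984, 6 arrays against 6, with time and dose in the model. The 6 arrays of a medium come from 2 membranes, so they are not 6 separate replicates. Of the 56 genes, 6 were lower in YPD and passed, and 0 were higher and passed. Among all genes 5.25% passed, 1.95% as lower and 3.3% as higher. The 6 were HIS4 of histidine synthesis, LEU4, LEU1, ILV3 and BAT1 of branched-chain synthesis, and ARG4 of arginine synthesis. Each was lower in YPD in 6 of 6 pairs of arrays matched for time and dose, and each lay above background on all 14 arrays. When the 3 arrays of each membrane set were first averaged, which leaves 4 values, 2 of the 6 still passed, HIS4 and LEU1.

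HIS4 encodes a multifunctional enzyme of the second, the third and the last steps of histidine synthesis. In F1 its lowest, median and highest levels were 1.58, 1.83 and 2.31. In YPD they were -1.39, -0.25 and 0.82. All 6 YPD arrays lay below all 6 F1 arrays, which held for HIS4 alone of the 56 genes and for 0.82% of all genes. The difference was -2.08 ± 0.34 (SE, n = 6 arrays per medium), 4.22-fold lower (limma adjusted p = 0.00249). By time it was -2.70 at 30 min and -1.46 at 1 h.

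LEU1 encodes isopropylmalate isomerase, the second leucine-specific step. Its lowest, median and highest levels were 0.51, 1.94 and 3.08 in F1 and -1.50, -0.20 and 0.97 in YPD, so the media overlapped. The difference was -2.09 ± 0.40, 4.25-fold lower (limma adjusted p = 0.00659). It was -2.66 at 30 min and -1.52 at 1 h.

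LEU4 encodes the main alpha-isopropylmalate synthase, which commits carbon to leucine. It stood at 1.95, 2.66 and 2.96 (lowest, median and highest) in F1 and at -0.10, 0.85 and 2.08 in YPD. Only the highest YPD array, at the high dose and 1 h, reached the F1 range. The difference was -1.59 ± 0.31, 3.02-fold lower (limma adjusted p = 0.00689), with -2.15 at 30 min and -1.04 at 1 h.

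ARG4 encodes argininosuccinate lyase, the last step of arginine synthesis. Its levels were 2.67, 3.25 and 3.76 in F1 and 1.14, 1.71 and 3.13 in YPD. At 30 min its levels ran from 2.67 to 2.91 in F1 and from 1.14 to 1.21 in YPD. At 1 h they ran from 3.58 to 3.76 in F1 and from 2.21 to 3.13 in YPD. How many of all genes separate as far within a time was not counted. The difference was -1.31 ± 0.27, 2.48-fold lower (limma adjusted p = 0.00944).

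BAT1 encodes the mitochondrial branched-chain aminotransferase. It stood at 1.94, 2.61 and 3.24 in F1 and at -0.53, 1.00 and 2.20 in YPD. The lowest array was the YPD mock at 1 h, at -0.53 against 2.09 and 2.20 for the MMS arrays of that set. The difference was -1.58 ± 0.43, 2.99-fold lower (limma adjusted p = 0.0404). ILV3, for dihydroxyacid dehydratase of isoleucine and valine synthesis, stood at 2.92, 3.53 and 4.46 in F1 and at 1.66, 2.42 and 3.43 in YPD, with a difference of -1.09 ± 0.30, 2.12-fold lower (limma adjusted p = 0.0443). Without the YPD 1 h mock array, BAT1 still passed and ILV3 did not.

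**Figure D1:**
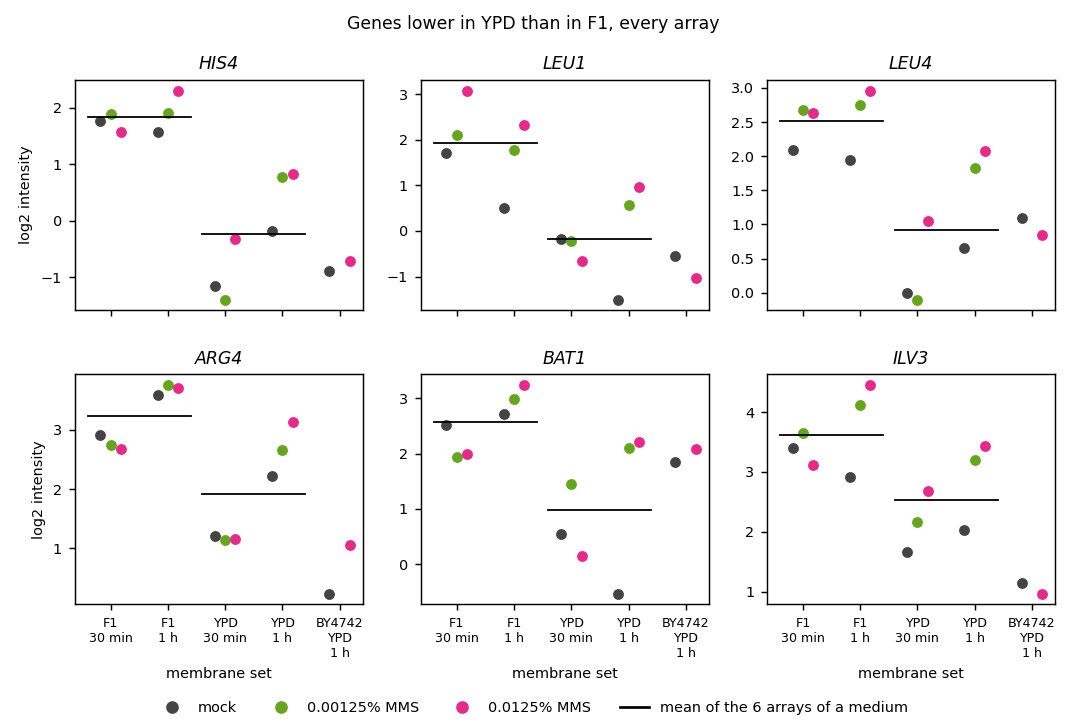
Log2 intensity (y axis) of the 6 genes that passed as lower in YPD, on every array, by membrane set (x axis) and coloured by dose, with a line at the mean of the 6 FF18984 arrays of each medium. The YPD arrays of HIS4 all lie below its F1 arrays, while for the other genes the media overlap when both times are pooled.

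Most of the list leaned the same way. The counts and medians that follow hold all 56 genes, the 6 that passed included. In the fit, 41 of 56 genes were lower in YPD, against 51.2% of all genes, and the median difference was -0.54 against -0.02 for all genes. Without background correction that median was -0.28, with -0.02 for all genes. An unadjusted p under 0.05 was reached by 19 genes as lower (9.48% of all genes) and by 1 as higher (10.9% of all genes). A difference below 0 in 6 of 6 matched pairs was found for 12 genes (7.76% of all genes), and one above 0 in 6 of 6 pairs for 0 genes (8.3% of all genes). By time the median was -0.48 at 30 min, with 38 of 56 lower, and -0.35 at 1 h, with 42 of 56 lower. Among all 6094 genes the medians were -0.05 and 0.02, with 3183 lower at 30 min and 2965 at 1 h.

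**Figure D2:**
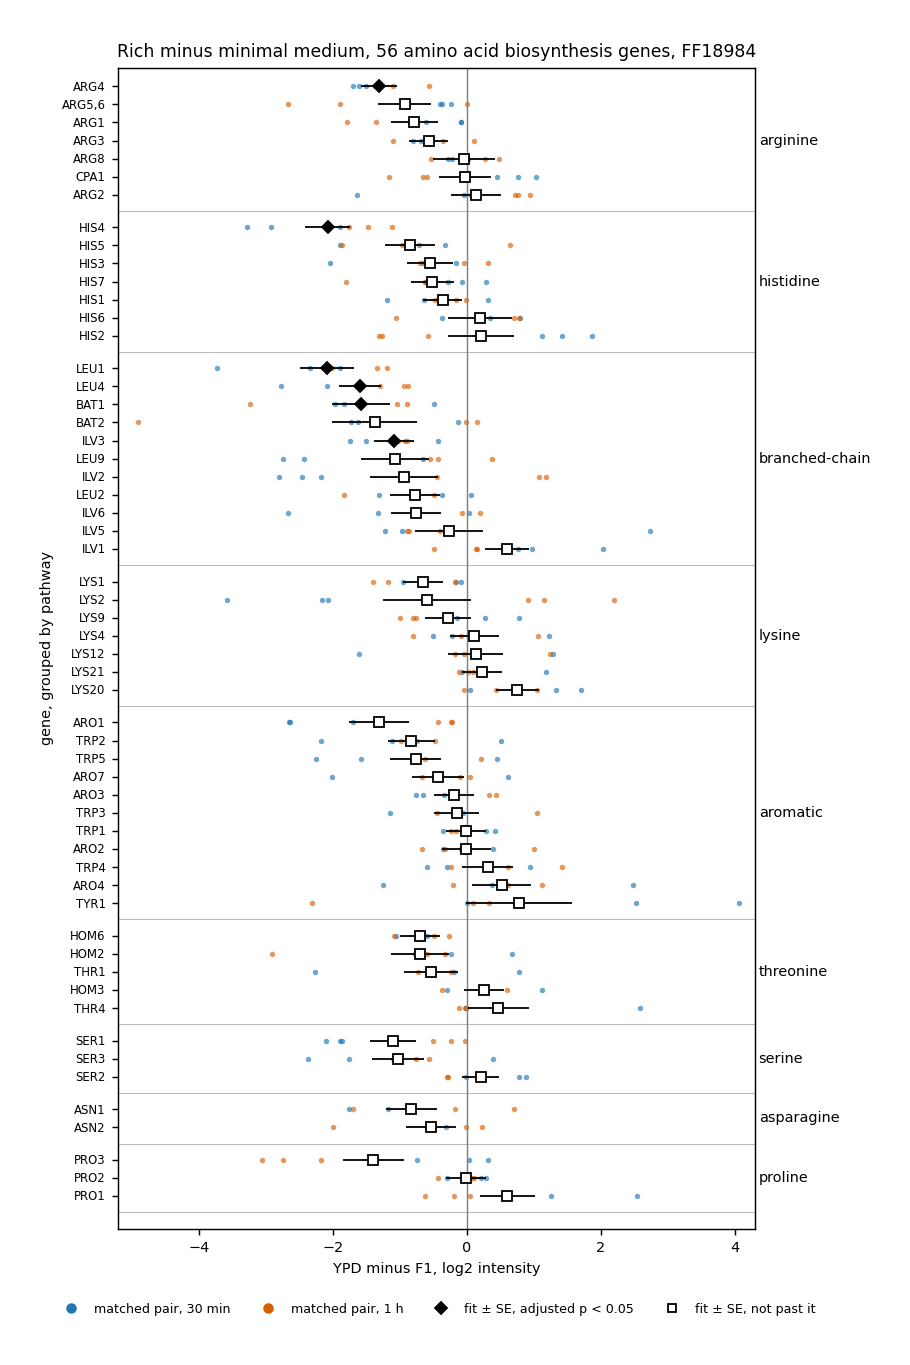
Difference between YPD and F1 in log2 intensity (x axis) for the 56 genes grouped by pathway (y axis), with the 6 matched pairs of arrays as dots coloured by time and the fitted difference with its SE as a square, or as a filled diamond for the 6 genes that passed. The fitted values of the branched-chain genes lie left of 0 except ILV1, while those of the lysine genes lie on both sides.

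The branched-chain pathway held 4 of the 6 genes that passed. Of its 11 genes, 10 were lower in YPD, with a median of -1.07. The exception was ILV1, for threonine deaminase, the entry to isoleucine, at 0.59 (limma adjusted p = 0.329). LEU9, a second alpha-isopropylmalate synthase, was at -1.07 (limma adjusted p = 0.243) beside -1.59 for LEU4. BAT2, the cytosolic aminotransferase, was at -1.38 (limma adjusted p = 0.238), but it lay at or below background on 5 of the 6 FF18984 arrays at 1 h. LEU2, for beta-isopropylmalate dehydrogenase, was at -0.78 (limma adjusted p = 0.251). Spots of such close paralogs may share signal, which was not tested.

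In arginine synthesis 6 of 7 genes were lower, with a median of -0.57. ARG5,6, whose product is cleaved into acetylglutamate kinase and the reductase that follows it, was at -0.93 (limma adjusted p = 0.2) and ARG1, argininosuccinate synthetase, at -0.78 (limma adjusted p = 0.226), both lower in 6 of 6 pairs. ARG1 lay at or below background on 6 arrays. In histidine synthesis 5 of 7 were lower, with a median of -0.52. HIS5, the aminotransferase, was at -0.85 (limma adjusted p = 0.206), and HIS3, imidazoleglycerol-phosphate dehydratase, at -0.55 (limma adjusted p = 0.389), which turned to 0.21 without background correction.

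The lysine genes showed no common direction, with 3 of 7 lower and a median of 0.11. LYS20, homocitrate synthase, the first step, was at 0.75 (limma adjusted p = 0.201) and its isozyme LYS21 at 0.22. Without background correction they turned to -0.0854 and -0.27. In the series table as deposited they turned to -0.0319 and -0.32, but the median of all genes there was -0.61. LYS1, the last step, was at -0.66 (limma adjusted p = 0.221) and lower in 6 of 6 pairs. LYS2, alpha-aminoadipate reductase, was at -0.59 with an SE of 0.66, with a difference of -2.60 at 30 min and 1.41 at 1 h. Its spots also read high in BY4742, which lacks the gene.

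Of the 11 aromatic genes 8 were lower, with a median of -0.16. ARO1, which encodes the pentafunctional enzyme between the first step and chorismate synthase, was at -1.31 (limma adjusted p = 0.0969), with -2.33 at 30 min and -0.30 at 1 h. TRP2, anthranilate synthase, was at -0.83 (limma adjusted p = 0.189), and TRP5, tryptophan synthase, at -0.76 (limma adjusted p = 0.275). The DAHP synthases ARO3 and ARO4, alternative first enzymes that are inhibited by phenylalanine and tyrosine respectively, were at -0.20 and 0.52.

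The small pathways were mixed as well. SER1, phosphoserine aminotransferase, was at -1.10 (limma adjusted p = 0.0771) and lower in 6 of 6 pairs, SER3 was at -1.03 (limma adjusted p = 0.135) and SER2 at 0.20. PRO3, the last enzyme of proline synthesis, was at -1.40 (limma adjusted p = 0.0888), with -0.14 at 30 min and -2.66 at 1 h, and it lay at or below background on 4 arrays. PRO1 and PRO2, which act before it, were at 0.60 and -0.01. In the series table as deposited PRO1 turned to -0.24, where the median of all genes was -0.61. Both asparagine synthetases were lower, ASN1 at -0.83 (limma adjusted p = 0.223) and ASN2 at -0.54 (limma adjusted p = 0.458). Of the 5 threonine genes 3 were lower, with HOM6, homoserine dehydrogenase, at -0.70 (limma adjusted p = 0.197), HOM2 at -0.70 and THR1 at -0.54.

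Genes around these pathways were counted in the same fit, where 1.95% of all genes passed as lower and 3.3% as higher. Of 16 regulators measured, 1 passed as higher in YPD and 0 as lower. GCN4 itself stood at 3.20, 4.12 and 4.47 (lowest, median and highest) in F1 and at 0.15, 3.07 and 3.82 in YPD, a difference of -1.30 ± 0.40 that did not pass (limma adjusted p = 0.0746) but was negative in 6 of 6 pairs. The regulator that passed was ARG81, a subunit of the ArgR-Mcm1 complex, at 1.33 (limma adjusted p = 0.0207). The other arginine regulators listed, ARG80 and ARG82, were at -1.57 (limma adjusted p = 0.0594) and 0.45 (limma adjusted p = 0.603). GCN1, which helps activate Gcn2, was at 2.08 (limma adjusted p = 0.0525). Of 17 other synthesis genes, mostly of nitrogen assimilation, transamination and glycine, 4 passed as lower (GDH3, GLN1, ALT1 and IDP1) and 1 as higher. IDP1, mitochondrial isocitrate dehydrogenase, was at -1.72, and the higher one was GLY1, threonine aldolase, at 1.39. Of 13 catabolic genes 1 passed, ARO9, an aromatic aminotransferase of tryptophan breakdown, which was higher in YPD by 2.23 (limma adjusted p = 0.00201). Most catabolic genes leaned the other way, with 10 of 13 lower (51.2% of all genes) and a median of -0.36. GCV3 was at -1.25 (limma adjusted p = 0.087) and lower in 6 of 6 pairs.

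The high dose of MMS was compared with the mock array of the same membrane set, over the 4 FF18984 sets. Of the 56 genes 0 passed in limma, while 0.082% of all genes did. An unadjusted p under 0.05 was reached by 11 genes, 9 higher and 2 lower, against 13.3% of all genes, 6.6% higher and 6.7% lower. In the fit 37 of 56 genes were higher at the high dose (49.7% of all genes), with a median of 0.25. A positive difference in 4 of 4 sets was found for 9 genes (8.25% of all genes), and a negative one for 1 gene, TRP1 (9.06% of all genes).

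The size differed between the sets. The median of the 56 genes was 0.08 in F1 at 30 min, 0.31 in F1 at 1 h, -0.04 in YPD at 30 min and 0.59 in YPD at 1 h. In YPD at 1 h, 18 genes were higher by 1 or more, against 16.8% of all genes. The mock array of that set was the lowest of its 3 arrays for 35 of the 56 genes, 62.5% against 40.4% of all genes. Without that array the median over the sets was 0.10, and without the whole set it was 0.01. The share of genes at or below background also moved with dose at 1 h, from 2.58% in mock to 31.4% at the high dose in F1 and from 11.2% to 33.4% in YPD; its part in the result was not tested.

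ASN1, asparagine synthetase, had the smallest p. In F1 its mock, low-dose and high-dose levels were 1.20, 1.55 and 2.40 at 30 min and 1.73, 2.32 and 2.52 at 1 h. In YPD they were 0.35, 0.38 and 0.64 at 30 min and 0.04, 2.14 and 3.21 at 1 h. The high-dose array was the highest in all 4 sets, and the gap was widest in YPD at 1 h. The fitted difference was 1.36 ± 0.39 and did not pass (limma adjusted p = 0.189).

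LEU4 differed by 0.55, 1.01, 1.05 and 1.42 in F1 at 30 min, F1 at 1 h, YPD at 30 min and YPD at 1 h, a fitted 1.01 ± 0.29 (limma adjusted p = 0.189). The differences of LYS2, in the same order, were 2.76, 1.09, 1.26 and 1.33, a fitted 1.61 (limma adjusted p = 0.196). LEU1 was at 1.29 (limma adjusted p = 0.22) and positive in 3 of 4 sets. ARO1 was at 1.24 (limma adjusted p = 0.22), THR1, homoserine kinase, at 1.22 (limma adjusted p = 0.265) and SER1 at 0.81 (limma adjusted p = 0.248), each positive in 4 of 4 sets. The 2 genes lower at an unadjusted p under 0.05 were HIS7, imidazole glycerol phosphate synthase, at -0.84, and ARO2, chorismate synthase, at -0.93, which turned to 0.15 without background correction. HIS7 lay at or below background on 7 arrays.

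The remaining genes with the smallest p of their pathway had an unadjusted p of 0.05 or more, except ASN2. In arginine synthesis ARG5,6 was at 0.55 and ARG1 at 0.30, and HIS4 was at 0.60. LYS12, homoisocitrate dehydrogenase, was at -0.44, SER3 at 0.83, PRO2 at 0.64 and PRO3 at 0.38, and HOM2 at 0.77. ASN2 was at 0.89, with 2.86 in YPD at 1 h. Of the 16 regulators, 17 other synthesis genes and 13 catabolic genes 0 passed in limma, and 6, 5 and 4 of them had an unadjusted p under 0.05, beside the 0.082% and 13.3% of all genes. Of the 6 regulators 2 were higher and 4 lower. Of the 5 other synthesis genes 4 were higher and 1 lower, and the 4 catabolic genes were all higher. LEU3, the leucine regulator, was at 1.57 (limma adjusted p = 0.189) and GCN20, a partner of Gcn1, at 1.14 (limma adjusted p = 0.227). The 4 lower regulators were GCN1 (-1.33), LYS14 (-1.04), ARG81 (-0.97) and GLN3 (-0.93). IDP1 was at 0.95 and LYS5 at -1.13 (limma adjusted p = 0.22 for both). The catabolic gene UGA2 was at 1.20 (limma adjusted p = 0.149) and CHA1, serine deaminase, at 1.51 (limma adjusted p = 0.19).

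**Figure D3:**
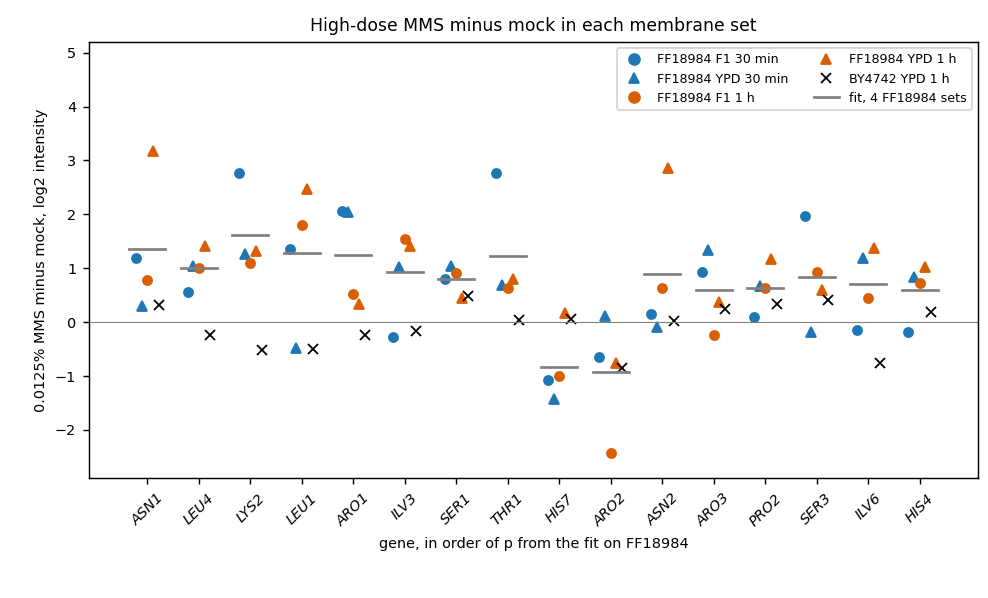
High-dose minus mock difference in log2 intensity (y axis) for the 16 genes with the smallest p (x axis), with 1 symbol per membrane set and a grey line at the fitted difference over the 4 FF18984 sets. The YPD 1 h set lies far above the others for ASN1 (3.17) and ASN2 (2.86), while the BY4742 pair lies within 1 of 0 for the genes shown.

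At the low dose 0 of 56 genes passed, as did 0% of all genes in limma. An unadjusted p under 0.05 was reached by 3 genes, against 6.43% of all genes. They were HIS7 at -0.85, ILV3 at 0.78 and LEU1 at 0.92. The median of the 56 was 0.09.

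Whether the high-dose difference itself depended on medium or time was tested as an interaction. For medium 0 of 56 genes passed in limma (0% of all genes), with 3 at an unadjusted p under 0.05 (4.15% of all genes). The smallest p belonged to ARO4, whose high-dose difference was -1.38 and -0.50 in F1 and 2.35 and 0.82 in YPD at 30 min and 1 h (limma adjusted p = 0.953). TRP5 and HOM2 followed, at 1.77 and 2.01 for YPD minus F1. For time 0 genes passed (0.23% of all genes), with 10 at an unadjusted p under 0.05 (17.1% of all genes). TYR1, prephenate dehydrogenase, was first at 4.46 (limma adjusted p = 0.104), with a difference of -5.23 in YPD at 30 min, where the high-dose array lay at the floor, and 2.58 in YPD at 1 h. ARG8, acetylornithine aminotransferase, was at 2.67 (limma adjusted p = 0.11), negative in both 30 min sets and positive in both 1 h sets. LEU9 was at 2.56 (limma adjusted p = 0.124).

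BY4742 gave 1 high-dose array and 1 mock array, so its differences have no replicate check and no test. Of the 56 genes 4 were higher by 1 or more and 3 lower, against 5.15% and 3.87% of all genes, and the median was 0.03. Among the 49 genes above background on both arrays, 26 were higher at the high dose. Of all 6094 genes, with no such filter, 2841 were higher. Among the 49 genes the 5 highest were SER2, phosphoserine phosphatase (from 1.74 to 3.62), PRO3 (1.09 higher), LYS1 (1.03 higher), LYS21 (0.97 higher) and ARG4 (0.83 higher). The 5 lowest of the 49 were HOM6 (-1.32), CPA1 (-1.07), ARO4 (-0.93), ARO2 (-0.85) and ILV6 (-0.77). LEU9 (-2.86) and LYS12 (1.00) were left out by the background filter. For HOM6 and CPA1, a subunit of carbamoyl phosphate synthetase, the FF18984 pair in YPD was at 1.34 and 0.69 at 1 h, and at -0.13 and -0.29 at 30 min, the time whose arrays those of BY4742 resemble. ASN1, LEU4 and LYS2 were at 0.32, -0.24 and -0.53 in BY4742, and the difference between strains was not tested.

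The 3 listed genes that carry a deletion in BY4742 did not all read low there. LEU2 stood at -1.22 and -1.44, below all 12 FF18984 arrays, whose lowest was -0.87. HIS3 stood at 1.13 and 0.76, within its FF18984 range of -0.63 to 1.80. LYS2 stood at 4.25 and 3.72, above 11 of the 12 FF18984 arrays, so its spots go against the deletion. How much of HIS3 the deletion in BY4742 removes was not checked, so its values need not go against it. The values of both genes above rest on spots whose identity was not checked. URA3, no member of the list, stood at 1.11 and 1.47 against 5.85 to 7.75.

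**Figure D4:**
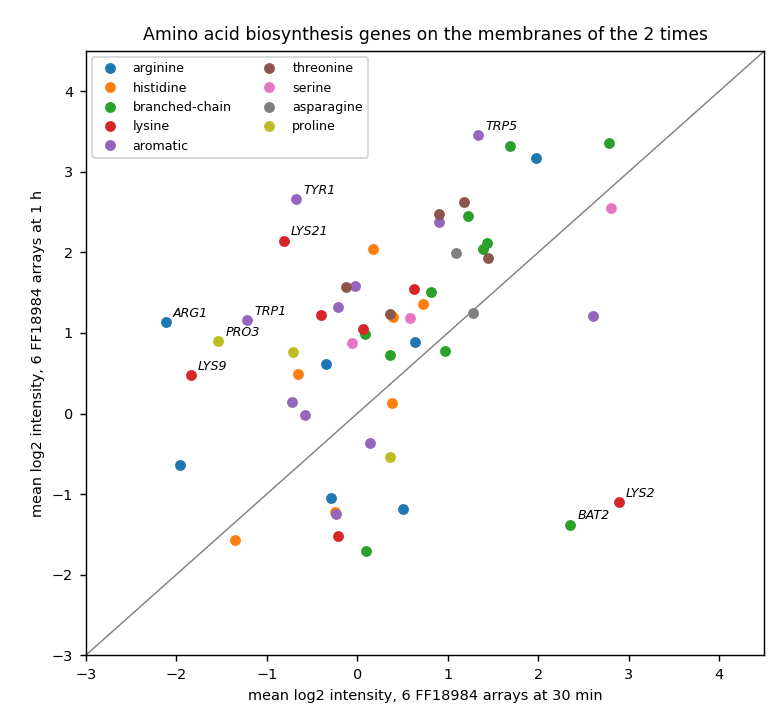
Mean log2 intensity of each of the 56 genes over the 6 FF18984 arrays at 30 min (x axis) and over the 6 at 1 h (y axis), coloured by pathway, with the line of equal levels and names for genes that differ by 2 or more. Most genes lie above the line, while LYS2 and BAT2 lie far below it.

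Most biosynthesis genes read higher on the 1 h membranes than on the 30 min membranes, a description with no test, since time and membrane cannot be told apart. The difference was positive for 40 of 56 genes, beside 3256 of all 6094 genes, with a median of 0.86 against 0.11 for all genes. It was 1 or more for 21 genes (24% of all genes) and -1 or less for 7 (24.1% of all genes). The genes named next were chosen after their values were seen. TYR1 was higher by 3.34 and ARG1 by 3.25, but they lay at or below background on 3 and 4 of the 6 arrays at 30 min, so these sizes rest on the floor. LYS21 was higher by 2.96. The level of LYS21 was -1.26 to -0.08 on the 30 min arrays and 1.78 to 2.43 on the 1 h arrays. How many of all genes separate as far between the times was not counted. LYS2 (-3.99), BAT2 (-3.73) and ILV2, the catalytic subunit of acetolactate synthase (-1.81), went the other way, and BAT2 and ILV2 lay at or below background on 5 and 4 of the 1 h arrays.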

How the data were processed

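Each deposited spot file gives, per the file headers, an intensity for each of 2 spots at 6912 positions, as the spot integral minus its local background. No normalization between arrays is recorded there. The deposited background-subtracted intensity was divided by the median positive value of its array, values below 0 were set to 0, a pseudocount of 0.187 was added, and log2 values were averaged per gene. Quantile normalization of the arrays followed (limma 3.58.1, R 4.3.3), and every gene was kept. The 6102 positions with an open reading frame gave 6094 genes, of which 5567 were named from RefSeq. A gene lay at or below background where the mean background-subtracted signal was 0 or less. No genome build is named, so no positions are given.

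Doses were compared on the 12 FF18984 arrays in limma (lmFit, eBayes with trend) with membrane set as a fixed block, and interactions with medium or time were added in separate fits. For YPD against F1 the model held medium, time and dose, and the set was a random block (duplicateCorrelation with statmod 1.5.0, correlation 0.0744). The sets share no replicate numbers, and the pairing of arrays within a set comes from the shared membrane named in the labels. The p-values were adjusted by Benjamini-Hochberg over 6094 genes. They reflect the spread between these samples alone, as nothing says that the sets came from separate cultures, and the number of arrays limits the precision. On simulated data with spread between the sets, the medium fit called more unchanged genes than its threshold allows, so set means are given beside that result. Python 3.11.15 with pandas 2.3.3, numpy 2.4.6 and matplotlib 3.10.9 was used.

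The members and lists were chosen with earlier results of these data known. Named genes are those that passed, those with the smallest p per pathway (3 for medium, 2 for the high dose), 3 each for the low dose and interactions, 6 paralog pairs, the genes deleted in BY4742, its 5 highest and 5 lowest, and 2 per surrounding list with GCN4. Alternatives were cyclic loess or median centring in place of quantile normalization, 4 times the pseudocount, no background correction, bright genes alone, the authors' series table, no block, leaving out each set, and each time alone. Set means, leaving out the YPD 1 h mock array and quantile normalizing the series table were added after the data were seen.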

Additional observations from a re-analysis of the deposited data

Results flagged for a closer look

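Of 112 groups of 6 arrays, each gene in each medium of FF18984, 8 held a single array far from the other 5. The nominal rate of the rule, 5%, gives 5.6. That rate assumes alike arrays, while each group mixes times and doses, so the rate by chance is not known here. In F1, ILV5 was at -0.91 in the mock array at 30 min against 2.68 to 3.84 on the others, and its high-dose difference in that set was 3.93. ARG2 was at -0.69 in the same array against 0.08 to 0.39. The duplicate spots of that array correlated at 0.675 (Spearman), the lowest of the 14 arrays. It is the mock array of every dose difference in F1 at 30 min, and its part in them was not tested. ILV6 was at 0.80 in the low-dose array at 30 min against 2.35 to 2.80. ARO2 was at -1.93 in the high-dose array at 1 h against -0.28 to 0.50. In YPD, ARO2 was at -0.93 in the high-dose array at 1 h against -0.16 to 0.29. HIS7 was at -0.45 in the mock array at 30 min against -2.20 to -1.75. ILV2 was at -2.20 in the low-dose array at 1 h against -1.18 to -0.86, and ARO1 was at 2.67 in the high-dose array at 30 min against 0.64 to 1.22. HIS7 and ILV2 lay at or below background on several arrays, as given above, so the sizes of their gaps may rest on the floor.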

How the results depend on the processing

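The count of 6 genes lower in YPD was 4 under median centring, 8 under cyclic loess, 5 without background correction, 5 with 4 times the pseudocount, 5 among bright genes alone, 6 without the replicate block, 5 without the YPD 1 h mock array and 2 with set means. In the authors' series table as deposited it was 28, all lower, but that table moved the median of all genes by -0.61 between the media and called 2602 genes; after quantile normalization, added after that result was seen, it was 6. HIS4 and LEU1 passed in 10 of 10 of these alternatives, LEU4 failed in 1, ARG4 in 2, BAT1 in 4 and ILV3 in 5. Leaving out a membrane set leaves no residual degrees of freedom among sets for the media, so only values were taken; HIS4 then ran from -2.70 to -1.46 and ILV3 from -1.22 to -0.95. For the high and low dose 0 genes passed in every alternative run, leaving out each set included. The high-dose median was 0.46 with the 1 h sets alone and -0.07 with the 30 min sets alone. For the high dose by time the count was 12, all higher, under median centring, where the all-gene median was 0.41, and leaving out single sets gave 0 to 2 (2 without the YPD 30 min set); by medium it was 0 throughout. In BY4742 the 7 genes past 2-fold became 1 without background correction, 3 with 4 times the pseudocount and 3 with the series table quantile normalized. The median of YPD minus F1 over the 56 genes, -0.54, was -0.34 under median centring, -0.28 without background correction, -0.38 with 4 times the pseudocount, -0.37 without the YPD 1 h mock array and -0.83 in the series table as deposited. Among named genes, apart from runs that left out a set, YPD minus F1 changed sign for 7 that had not passed. ARO3 turned to 0.12 under median centring. Without background correction HIS3 turned to 0.21, LYS20 to -0.0854 and LYS21 to -0.27. In the series table as deposited LYS20 turned to -0.0319, LYS21 to -0.32 and PRO1 to -0.24. PRO2 turned to 0.0012 with 4 times the pseudocount and to 0.0878 without the YPD 1 h mock array. SER2 turned to -0.0764 under cyclic loess. Signs that turned when a set was left out were not counted, for example LYS2 at 1.41 when a 30 min set was left out. Genes not named were not checked for turned signs. For the high dose, ARG1 turned to -0.0133 without the YPD 1 h set and -0.14 at 30 min alone, HOM2 to -0.0753 at 30 min alone, and ARO2 to 0.15 and SER3 to -0.0331 without background correction. Apart from the shift of the deposited scale, the cause was not tested.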
